A study of Homo sapiens with 6 samples.

Results

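Cystatins are proteins that block papain-like cysteine proteases, the enzyme class of most lysosomal cathepsins, by fitting a wedge of the inhibitor reversibly into the protease's active site. The stefins, encoded by CSTA and CSTB, lack a signal peptide and act mainly inside cells. The other members examined here are secreted: cystatin C (CST3), made by nearly all cells, the salivary-type cystatins SN, SA and S (CST1, CST2 and CST4), cystatin D (CST5) and cystatin E/M (CST6), which also inhibits the asparagine-specific protease legumain. In epithelia this balance of inhibitor and cathepsin bears on lysosomal protein turnover and on proteolysis outside the cell.

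The 8 genes were chosen as members of the family by their symbols, and each was represented by 1 of the 22215 probe sets that are not array controls, out of 11963 genes with a single symbol. No probe set was annotated to more than 1 of the 8 genes. CST1, CST2 and CST4 are close copies, and the CST2 probe set carries the array maker's mark for probes that also match other transcripts, so signals of these 3 genes may mix. In RefSeq's annotation of GRCh38.p14, CST3, CST4, CST1, CST2 and CST5 follow each other on chromosome 20 with 0 other protein-coding genes between them, while CST6, CSTA and CSTB lie on chromosomes 11, 3 and 21.

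RNA from A549, a standard human lung adenocarcinoma cell line, was hybridised to 6 Affymetrix arrays. The cells of 2 arrays had been transfected with the plasmid pCMV5 carrying human PIAS3, which attaches SUMO to other proteins and inhibits the transcription factor STAT3, and those of another 2 with an siRNA against STAT3. The cells of the last 2 arrays, the control, were labelled as EGF-stimulated and received neither agent. Per the labels, all cells were first grown for 12 h with 10% serum. The design text gives serum-free medium followed by EGF for all 3 groups. Harvest followed transfection by 48 h, no separate time is labelled for the control, and no array with an empty plasmid or a non-targeting siRNA was used here. The labels leave unsaid whether paired arrays stem from different cultures, so errors may be technical. Values are log2 levels per probe set, and a fold is 2 to the power of a log2 difference. In bulk RNA, fewer cells expressing a gene and less RNA per cell cannot be told apart.

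The brighter STAT3 probe set read 10.18 and 9.70 in PIAS3 arrays and 10.23 and 9.94 in siRNA arrays, against 10.50 and 10.43 in control arrays. PIAS3 itself read 7.78 and 7.72 in the arrays labelled PIAS3, against 7.70 and 7.71 in control arrays, and the sources used here do not say whether its probes lie within the cloned sequence. Of 10 epithelial markers 9 were measured. In the fit described below 0 of them were called in any comparison, where at most 0.099% of all probe sets were. The keratins KRT7 (13.06 to 13.46), KRT8 (12.39 to 12.62) and KRT18 (13.60 to 13.79) were high on every array. With PIAS3 the log2 difference from control was -1.91 ± 0.38 for KRT19, -0.66 ± 0.32 for EPCAM and 1.09 ± 0.16 for CDH1. The lower levels were not particular to PIAS3. With the siRNA, EPCAM differed from control by -0.65 ± 0.32 and CDH1 by 0.24 ± 0.16. KRT19 read 10.76 and 9.42 in siRNA arrays, against 11.16 and 11.02 in control arrays. Arrays stood apart within groups: 20 interferon-stimulated genes had a median difference from the control mean of 4.06 in PIAS3 replicate 1 but of -0.06 in PIAS3 replicate 2, and poly-A spike-in probe sets stood 1.44 above control in that first array. The siRNA replicate 2 array differed less from PIAS3 replicate 2 (SD over probe sets 0.187) than from siRNA replicate 1 (0.254). The siRNA replicate 1 array differed less from control replicates 1 and 2 (0.21 and 0.199) than from siRNA replicate 2. Several differences below are therefore also given without one of these arrays.

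The 8 cystatins differed widely in how far they lay from control. CST1 and CSTA stood more than 1 log2 above control in the PIAS3 arrays, CST4 stood higher on all 4 transfected arrays, CST2 stood higher on 3 of them, and CST3, CST5, CST6 and CSTB differed little. The family was selected on log2 values of these arrays in the same comparisons, with the results known. Its values are therefore given as a description, with standard errors (SE, n = 2 arrays per group) from a limma fit across all probe sets and no test of the single members. In that fit, at an adjusted p under 0.05, 0 of the 8 probe sets were called in any of the 3 comparisons. Of all probe sets, 0.099% were called between PIAS3 and control, 0.0045% between siRNA and control and 0% between PIAS3 and siRNA. Under an unadjusted p of 0.05 lay 3, 2 and 1 of the 8, where 13.9%, 4.85% and 8.1% of all probe sets did. Because the family was selected on these values, such counts are a description and carry no test.

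**Figure D1:**
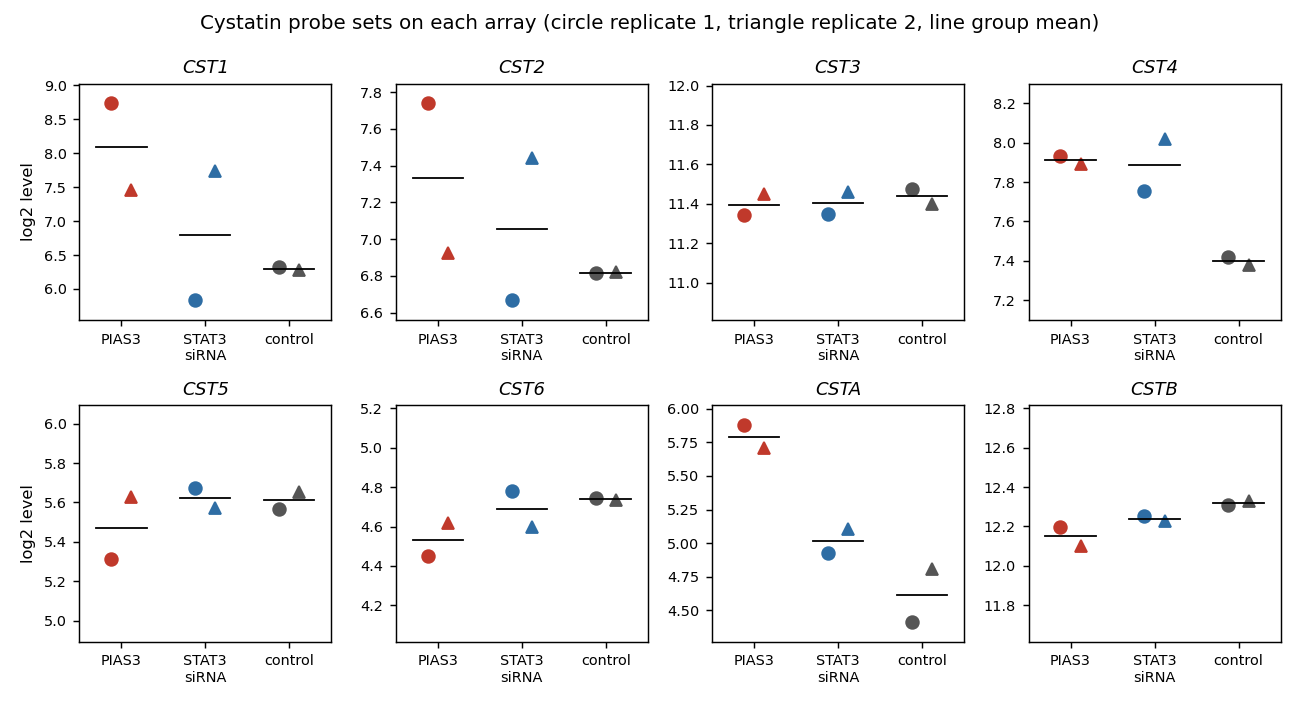
Log2 level of each cystatin probe set on each array, with circles for replicate 1, triangles for replicate 2 and lines for group means; each panel has its own axis range of at least 1.2 log2 units. CST1 and CST2 spread widely within both transfected groups, CSTA steps down between PIAS3, siRNA and control arrays, and CST3 lies between 11.34 and 11.48 throughout.

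CST1, cystatin SN, an inhibitor found in saliva, tears and airway secretions, varied most among the 8. It read 8.74 and 7.46 in PIAS3 arrays and 5.83 and 7.74 in siRNA arrays, against 6.32 and 6.28 in control arrays. Both PIAS3 arrays and siRNA replicate 2 were above both controls, while siRNA replicate 1 was the lowest of the 6. The log2 difference of PIAS3 from control was 1.80 ± 0.61, a 3.48-fold higher level. It was 1.16 without PIAS3 replicate 1, the array with raised interferon-stimulated genes, and 2.44 without PIAS3 replicate 2.

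The siRNA group had no common direction for CST1. Its mean lay 0.49 ± 0.61 above control, but the 2 arrays lay on opposite sides, and the difference was 1.44 without siRNA replicate 1 and -0.47 without siRNA replicate 2. PIAS3 minus siRNA was 1.31 ± 0.61, and 0.36 without siRNA replicate 1. The SD between paired arrays was 0.90 for PIAS3 and 1.35 for siRNA, against 0.03 for control, so the transfected groups carried nearly all of the spread behind these errors.

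CST2, cystatin SA, a salivary paralog of CST1, followed nearly the same order of arrays on a smaller scale. Its levels were 7.74 and 6.92 in PIAS3 arrays and 6.67 and 7.44 in siRNA arrays, against 6.81 and 6.82 in control arrays. PIAS3 replicate 1 and siRNA replicate 2 were the highest, and siRNA replicate 1 again the lowest. PIAS3 stood 0.52 ± 0.31 above control, a difference of 0.11 without PIAS3 replicate 1. The siRNA mean stood 0.24 ± 0.31 above control, which became -0.15 without siRNA replicate 2. Since its probes can match related transcripts, how much of the CST2 signal came from CST1 RNA was not tested.

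CST4, cystatin S, the third salivary paralog, showed tighter pairs. Its values were 7.93 and 7.89 in PIAS3 arrays and 7.75 and 8.02 in siRNA arrays, against 7.42 and 7.38 in control arrays. All 4 transfected arrays lay above both controls, and the transfected groups overlapped each other. The log2 difference from control was 0.51 ± 0.12 with PIAS3 (1.42-fold) and 0.49 ± 0.12 with the siRNA (1.40-fold). Both comparisons share the control arrays. Between the transfected groups the difference was 0.02 ± 0.12. With any array of the compared groups left out, PIAS3 minus control stayed between 0.49 and 0.53, and siRNA minus control between 0.35 and 0.62. CST1 and CST4, near-neighbours on the chromosome, thus differed in array order: siRNA replicate 1 was the lowest array for CST1 but stood above both controls for CST4.

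**Figure D2:**
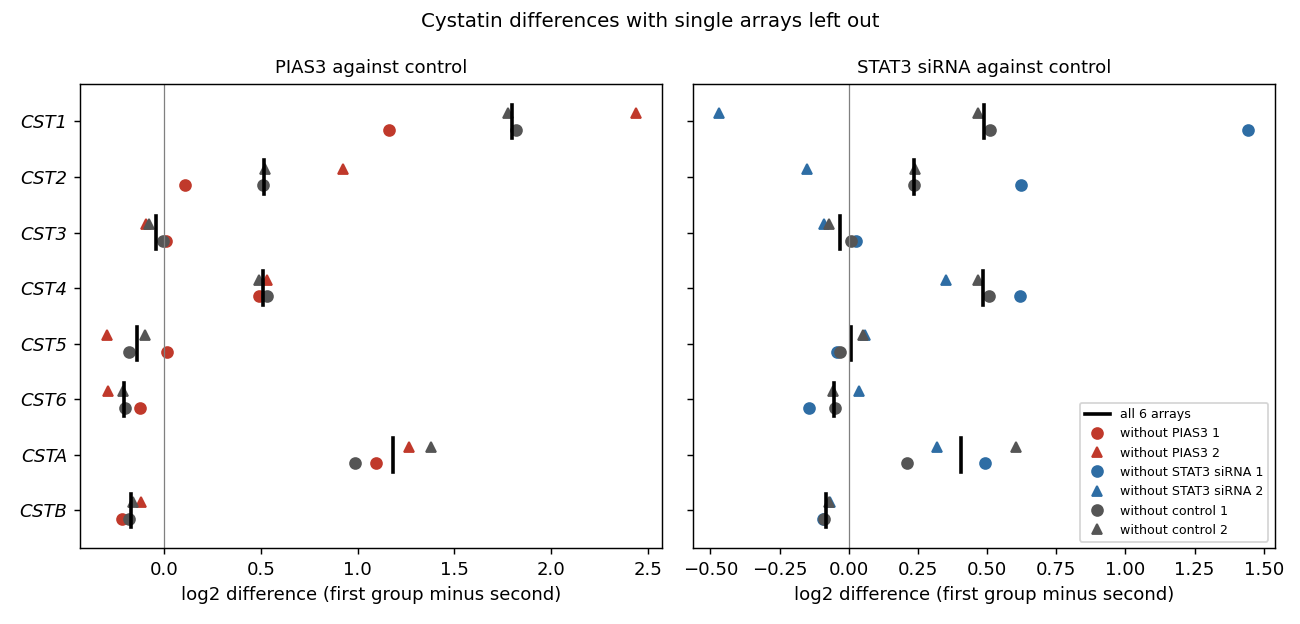
Log2 difference of each cystatin probe set from control in the fit on all 6 arrays (black line) and with 1 array of the compared groups left out (circles replicate 1, triangles replicate 2, coloured by group), for PIAS3 on the left and STAT3 siRNA on the right; the panels have different horizontal ranges. CST1 moves between 1.16 and 2.44 on the left and crosses zero on the right, while CST4 stays between 0.49 and 0.53 on the left.

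CST3 and CST5, the outermost of the 5 members examined on chromosome 20, stayed close to control. CST3 read 11.34 and 11.45 in PIAS3 arrays and 11.35 and 11.46 in siRNA arrays, against 11.48 and 11.40 in control arrays. All 3 groups overlapped. Its differences from control were -0.04 ± 0.11 for PIAS3 and -0.03 ± 0.11 for the siRNA, and their sign changed under other settings. CST5, an inhibitor known mainly from saliva, read 5.31 and 5.63 in PIAS3 arrays and 5.67 and 5.57 in siRNA arrays, against 5.57 and 5.65 in control arrays. Only PIAS3 replicate 1 stood below the remaining 5 arrays, and the PIAS3 difference of -0.14 ± 0.13 was 0.02 without it. CST6, on another chromosome, is known as an inhibitor in skin and as a gene silenced in some tumours. It read 4.45 and 4.62 in PIAS3 arrays and 4.78 and 4.60 in siRNA arrays, against 4.75 and 4.74 in control arrays. The PIAS3 arrays were below both controls by a mean of -0.21 ± 0.12, which was -0.13 without PIAS3 replicate 1. The siRNA arrays straddled the controls (-0.05 ± 0.12, and 0.04 without siRNA replicate 2).

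The table holds no detection calls. As a measured floor, 3 control probe sets for a bacterial trp transcript read 3.26 to 3.93 over the arrays, below the lowest value of each of the 8 cystatins. Probe sets differ in brightness for the same amount of RNA, so this does not settle whether CST5, CST6 or CSTA was detected. RMA, the summary method named for these values, compresses differences of dim probe sets.

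CSTA, stefin A, an inhibitor of stratified epithelia and white blood cells that is built into the cornified envelope of skin, read 5.88 and 5.71 in PIAS3 arrays and 4.93 and 5.10 in siRNA arrays, against 4.41 and 4.81 in control arrays. The 3 groups did not overlap: both PIAS3 arrays were highest, the siRNA arrays in between and the controls lowest. A sign of RNA quality followed nearly the same order: for the actin transcript, the level at the 3' end minus that at the 5' end was 0.43 and 0.28 in PIAS3 arrays and 0.16 and 0.23 in siRNA arrays, against 0.12 and 0.10 in control arrays, and its part in the CSTA values was not tested. For GAPDH the same measure was 0.40 and 0.37 in PIAS3 arrays and 0.29 and 0.40 in siRNA arrays, against 0.36 and 0.29 in control arrays, which overlap. CSTA in PIAS3 arrays stood 1.18 ± 0.16 above control (2.27-fold) and 0.78 ± 0.16 above the siRNA. The siRNA stood 0.41 ± 0.16 above control, which was 0.21 without control replicate 1. With single arrays left out the PIAS3 difference stayed between 0.98 and 1.38, and it was 1.10 without PIAS3 replicate 1.

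CSTB, stefin B, a widely expressed inhibitor whose loss causes a progressive myoclonus epilepsy, read 12.20 and 12.10 in PIAS3 arrays and 12.25 and 12.23 in siRNA arrays, against 12.31 and 12.33 in control arrays. The group order was the reverse of CSTA, again with no overlap. The sizes were small: -0.17 ± 0.10 for PIAS3 and -0.08 ± 0.10 for the siRNA, each against control. PIAS3 minus siRNA was -0.09 ± 0.10, but 0.0004 after cyclic loess. Against control the sign held under quantile normalization (-0.12 for PIAS3) and cyclic loess (-0.09).

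Because white blood cells express CSTA, genes known as their markers were read beside it, here in RNA of a carcinoma cell line. Of 13 leukocyte markers fixed as a list, 10 were measured, 8 of them above control with PIAS3, and 0 were called. For 1 of them (CD14) the unadjusted limma p was under 0.05, where 13.9% of all probe sets lay. With the siRNA, 8 of the 10 lay above control as well, with a median difference of 0.03. Among all probe sets, 47.9% lay above control with PIAS3 and 48.9% with the siRNA. The list's median difference with PIAS3 was 0.05, and its part in the CSTA values was not tested. The list's median level was 5.57 and 5.37 in PIAS3 arrays, against 5.42 and 5.48 in control arrays. CD14, a co-receptor for bacterial lipopolysaccharide, read 6.84 and 6.54 in PIAS3 arrays and 5.90 and 5.99 in siRNA arrays, against 5.87 and 5.83 in control arrays (PIAS3 minus control 0.84 ± 0.13, limma adjusted p = 0.0792). PTPRC, the common leukocyte antigen, read 3.85 to 3.95 and LYZ, lysozyme, 3.39 to 3.52 over the 6 arrays, values close to those of the bacterial control probe sets.

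Both arrays of PIAS3 lay beyond both controls for 6 of the 8 cystatins, 4 higher (CST1, CST2, CST4 and CSTA) and 2 lower (CST6 and CSTB), where 45.4% of all probe sets did so (21% higher, 24.4% lower). For the siRNA this held for 3 of 8 (CST4 and CSTA higher, CSTB lower) against 37.5% of all probe sets (18.3% higher, 19.1% lower). Between PIAS3 and siRNA it held for 2 of 8 (CSTA higher, CSTB lower) against 35% (16.2% higher, 18.7% lower). The median log2 difference over the 8 was 0.23 for PIAS3 against control and 0.12 for the siRNA against control, beside -0.01 and -0.003 over all probe sets. A log2 difference above 1 was reached by 2 members with PIAS3, where 0.945% of all probe sets reached it. Since the family was selected on these values, these counts and medians are a description and carry no test.

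**Figure D3:**
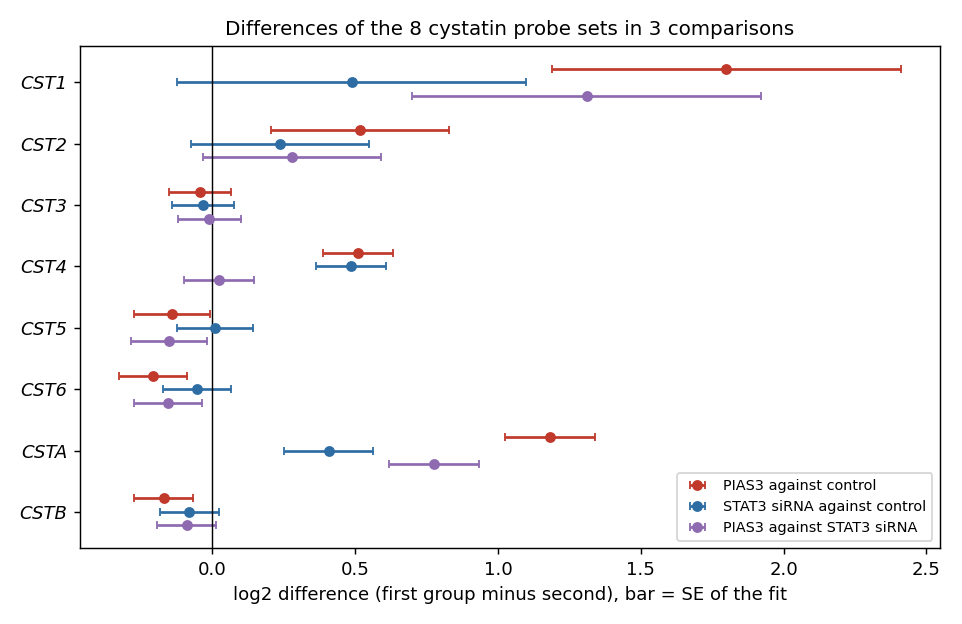
Log2 differences of the 8 cystatin probe sets in the comparisons of PIAS3 with control, STAT3 siRNA with control and PIAS3 with STAT3 siRNA (points), with bars for the SE of the fit on 6 arrays. CST1 has the widest bars (0.61), CST4 lies near 0.5 in both comparisons with control and near 0 between the transfected groups, and CSTA lies above 0 in all 3.

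The likeness of array profiles was measured as the root mean square distance between log2 profiles, each centred on its own mean over the 6 arrays, for the 3 cystatins whose range passed 1 log2. The profile nearest to CST1 was that of PTGS2, the inducible cyclooxygenase of prostaglandin synthesis, at a distance of 0.12. PTGS2 read 8.82 and 7.58 in PIAS3 arrays and 5.92 and 7.55 in siRNA arrays, against 6.47 and 6.25 in control arrays. Next came PLA2G4A, a cytosolic phospholipase that releases arachidonic acid (0.27), and CYP4F3, an oxidase of leukotriene B4 (0.28). All 3 shared the low siRNA replicate 1 and the high siRNA replicate 2 of CST1.

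For CSTA the nearest profiles were those of INSL4, a placental insulin-like peptide (0.12), HLA-DMB, a chaperone of antigen loading onto MHC class II (0.12), and MAP3K8, a kinase upstream of ERK (0.15). INSL4 read 8.85 and 8.84 in PIAS3 arrays and 8.01 and 8.32 in siRNA arrays, against 7.69 and 7.77 in control arrays. CST2 was most like SPATS2L (0.138), the drug exporter ABCC2 (0.142) and the chemokine CXCL3 (0.144). These distances rest on 6 arrays in 3 groups of 2, and they carry no test.

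**Figure D4:**
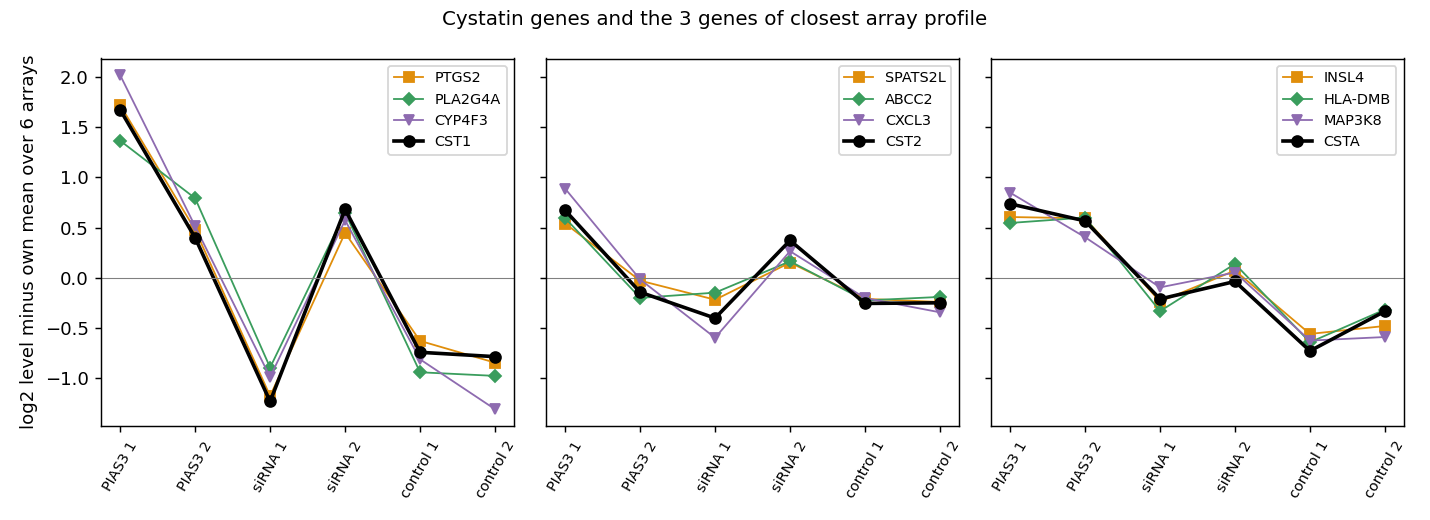
Log2 level minus the gene's own mean over the 6 arrays, for CST1, CST2 and CSTA (black) and the 3 genes of smallest profile distance to each (coloured lines). The CST1 panel falls at siRNA replicate 1 and rises at siRNA replicate 2, whereas the CSTA panel is high in both PIAS3 arrays and low in both controls.

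The proteases that cystatins inhibit were read from a list of 11 cysteine cathepsins and legumain, all 12 of which were measured. In the limma fit 0 of 12 were called in any comparison. At an unadjusted p under 0.05, 3 were higher in PIAS3 than in control (CTSV, CTSL and CTSB), 1 was higher and 1 lower in siRNA than in control (CTSV and CTSS), and 2 were higher in PIAS3 than in siRNA (CTSB and CTSV). Of all probe sets, 13.9%, 4.85% and 8.1% lay under that unadjusted p in these comparisons. With PIAS3, 9 of 12 lay above control with a median log2 difference of 0.12, beside -0.004 over all genes. With the siRNA, 6 lay above and 6 below, with a median of -0.04. The share of all probe sets above control was 47.9% with PIAS3 and 48.9% with the siRNA.

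CTSL, cathepsin L, an endopeptidase of lysosomes, read 12.02 and 11.30 in PIAS3 arrays and 10.58 and 11.40 in siRNA arrays, against 10.74 and 10.68 in control arrays. Its 6 arrays fell in exactly the order found for CST1, which was so for 37 of the 11963 genes compared (0.309%), CTSC among them. This likeness was looked for after the values were seen. The PIAS3 difference of 0.95 ± 0.30 was not called (limma adjusted p = 0.234) and was 0.59 without PIAS3 replicate 1. The siRNA difference was 0.28 ± 0.30, and -0.13 without siRNA replicate 2. CTSV, cathepsin L2, a close relative of cathepsin L found in thymus and skin, read 8.40 and 8.38 in PIAS3 arrays and 7.80 and 8.18 in siRNA arrays, against 7.65 and 7.58 in control arrays. As with CSTA and the actin measure, the 3 groups did not overlap and ran in the order PIAS3, siRNA, control, and the part of RNA quality was not tested. PIAS3 minus control was 0.78 ± 0.14 (limma adjusted p = 0.0931). The siRNA difference was 0.37 ± 0.14, and 0.18 without siRNA replicate 2.

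CTSB, cathepsin B, which also trims peptides from their ends, read 11.60 on both PIAS3 arrays and 11.19 and 11.37 in siRNA arrays, against 11.29 and 11.27 in control arrays. The 4 probe sets of this gene gave PIAS3 differences of 0.28 to 0.35, none of which was called (lowest limma adjusted p = 0.253). CTSS, cathepsin S, which processes the invariant chain of MHC class II, read 8.56 and 7.65 in PIAS3 arrays and 7.49 and 7.49 in siRNA arrays, against 8.01 and 8.30 in control arrays. The siRNA arrays lay below both controls by -0.67 ± 0.27, and the second CTSS probe set gave -0.60 ± 0.26, neither of them called (limma adjusted p = 1 for each). PIAS3 replicate 1 was the highest array for the brighter CTSS probe set, as it was for the interferon-stimulated genes, whose part in this value was not tested. For the second probe set, control replicate 2 was highest (5.22, against 5.15 in PIAS3 replicate 1). PIAS3 minus control was -0.05 ± 0.27 for the brighter probe set, and -0.50 without PIAS3 replicate 1. It was -0.20 ± 0.26 for the second. CTSH, cathepsin H, an aminopeptidase that matures surfactant proteins in lung, read 7.83 and 8.63 in PIAS3 arrays and 8.94 and 8.38 in siRNA arrays, against 8.81 and 8.75 in control arrays (PIAS3 minus control -0.55 ± 0.28, limma adjusted p = 0.444). That difference was -0.15 without PIAS3 replicate 1, and the siRNA difference of -0.12 ± 0.28 was 0.17 without siRNA replicate 2. LGMN, the legumain that CST6 and CST3 inhibit, read 9.38 and 9.13 in PIAS3 arrays and 9.05 and 9.05 in siRNA arrays, against 9.05 and 8.98 in control arrays (0.24 ± 0.12, limma adjusted p = 0.437, and 0.12 without PIAS3 replicate 1).

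**Figure D5:**
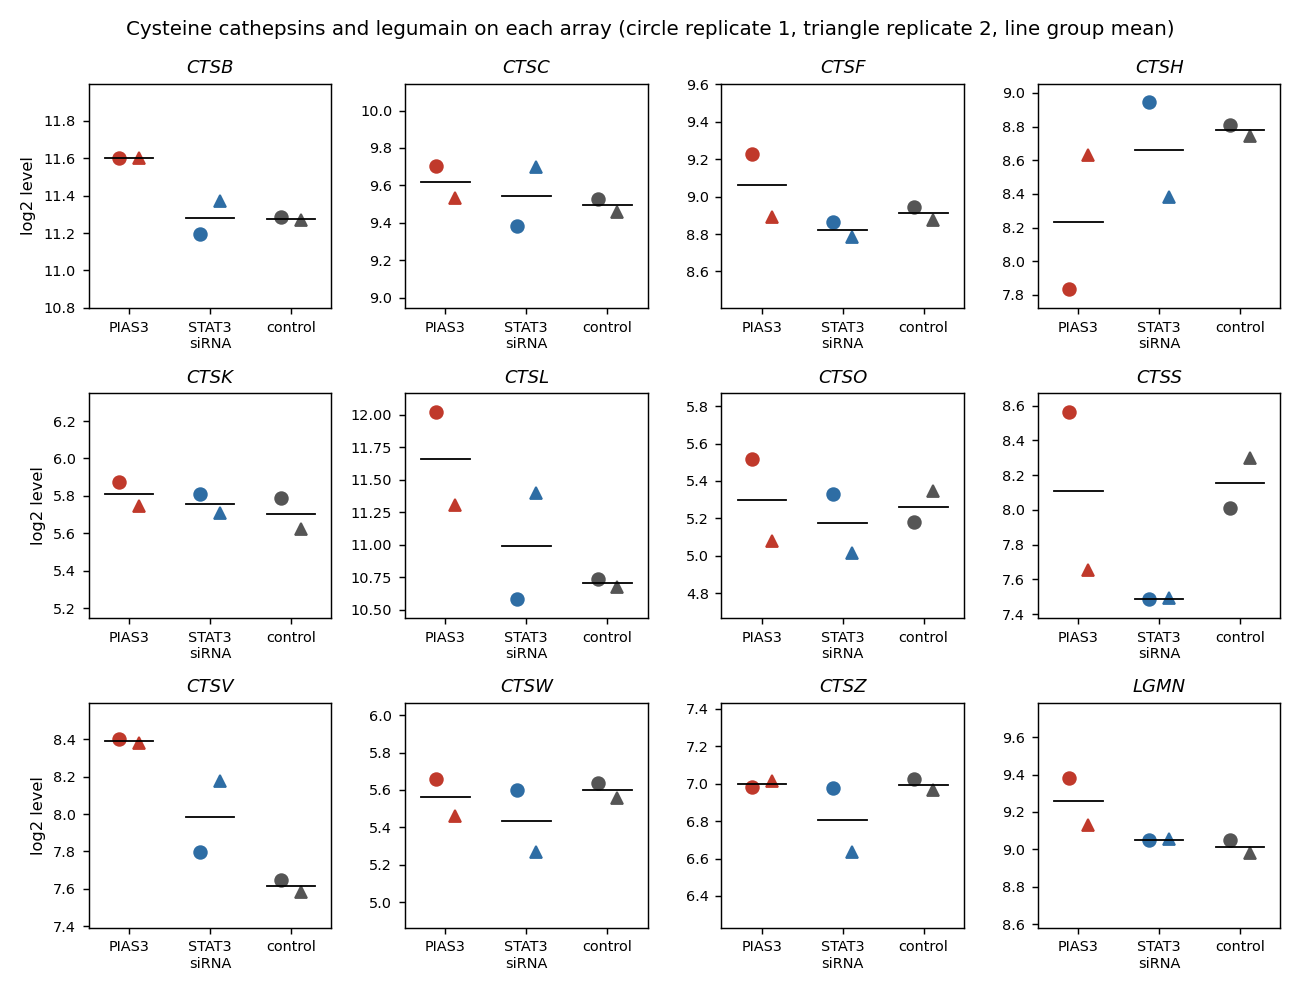
Log2 level on each array for the brightest probe set of 11 cysteine cathepsins and legumain, with circles for replicate 1, triangles for replicate 2 and lines for group means; each panel has its own axis range of at least 1.2 log2 units. CTSL repeats the array order of CST1, CTSV is high in both PIAS3 arrays (8.40 and 8.38), and CTSS is low in both siRNA arrays (7.49).

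Cathepsins of other catalytic classes, which cystatins are not known to block, were CTSA, CTSD, CTSE and CTSG. Their PIAS3 differences from control ran between -0.04 and 0.08, and 0 of 4 were called, with 0 under an unadjusted p of 0.05. All 4 siRNA means lay below control, with a median of -0.20, and below PIAS3, CTSD by 0.28 ± 0.16. In both of these comparisons 0 were called and 0 had an unadjusted p under 0.05. Of all probe sets, 13.9% lay under it for PIAS3 against control, 4.85% for siRNA against control and 8.1% for PIAS3 against siRNA. The cornified envelope list, whose products are cross-linked together with stefin A in skin, had 13 of 14 genes measured and 0 called in any comparison. With PIAS3, 11 of 13 lay above control with a median of 0.17, beside -0.004 over all genes. With the siRNA, 12 of 13 lay above control, with a median of 0.05. Of all probe sets, 47.9% lay above control with PIAS3 and 48.9% with the siRNA. For PIAS3 against control, 1 of 13 had an unadjusted limma p under 0.05, where 13.9% of all probe sets did. That gene was PPL, the envelope linker periplakin, which read 7.78 and 7.90 in PIAS3 arrays and 7.16 and 7.61 in siRNA arrays, against 7.33 and 7.22 in control arrays (0.57 ± 0.16 for PIAS3 against control, limma adjusted p = 0.191). The transglutaminase TGM3 stood at 0.30 ± 0.13, SPRR2B at 0.23 ± 0.11 and envoplakin, EVPL, at 0.22 ± 0.11. IVL, involucrin, the envelope scaffold, stood at 0.17 ± 0.12. TGM1 and SCEL lay below control, at -0.04 ± 0.15 and -0.07 ± 0.14. TGM3 and IVL were dim, with mean levels of 5.52 and 5.33 over the 6 arrays. The SPRR2B probe set carries the same mark for probes matching other transcripts as that of CST2.

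Other genes of the cystatin superfamily gave small differences. Of 10 listed, 6 were measured (CST7, CST8, KNG1, HRG, AHSG and FETUB), with PIAS3 differences from control between -0.18 and 0.09 and siRNA differences between -0.20 and 0.06. In limma 0 were called in any comparison, and 0 had an unadjusted p under 0.05. Of all probe sets, at most 0.099% were called in a comparison. Under that unadjusted p lay 13.9% for PIAS3 against control, 4.85% for siRNA against control and 8.1% for PIAS3 against siRNA. CST7, cystatin F, an inhibitor of immune cell lysosomes, read 6.63 and 6.18 in PIAS3 arrays and 6.41 and 6.05 in siRNA arrays, against 6.30 and 6.33 in control arrays, so its groups overlapped.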

How the data were processed

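The deposited values are log2 levels, 1 per probe set and array, which the authors made with RMA (no version given) per the submitters' processing notes. RMA subtracts background, scales arrays to a common distribution and combines the probes of a set. For other tools, the annotation version and the genome build, the sources used here give nothing. Of 22277 probe sets on 6 arrays, 62 array controls were left out. Symbols came from the supplied platform annotation: 19064 probe sets had 1 symbol, 1043 several and 2108 none, and 19052 were matched to RefSeq by gene identifier. The brightest probe set by mean stood for genes of a list.

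Groups and replicate numbers came from sample titles. All 6 arrays entered 1 limma 3.58.1 fit in R 4.3.3 (lmFit, eBayes, two-sided, 1 mean per group, 3 residual and 4.27 prior degrees of freedom). Benjamini-Hochberg adjustment ran over 22215 probe sets separately for the 3 comparisons, and calls needed an adjusted p under 0.05. Members, lists and tests were chosen with earlier results of these data known. Named were all members, up to 4 genes of each related list by smallest p, of which the text describes the main ones, and the 3 nearest profiles of each member whose range was above 1. The leukocyte and epithelial markers named, and CTSH, were picked from their lists after values were seen. In 20 simulated runs with 200 changed probe sets for PIAS3 against control, over 22215 probe sets, the fit recovered 62% of those set to 1 log2 and 92.5% of those set to 2 log2, and 3.25% of calls were false. The simulated noise was independent between probe sets and equally wide in all groups. On the real arrays the SD of the difference between paired arrays was 0.346 for PIAS3, 0.254 for siRNA and 0.152 for control. The simulated rates therefore need not hold for these arrays. The number of arrays limits the precision. Results were recomputed without each array in turn, with a replicate block, with a gene's probe sets averaged, after median centring, cyclic loess or repeated quantile normalization, with probe sets above the 40th percentile of mean level alone, with robust or trended eBayes, with the 2 groups alone, at an adjusted p of 0.10, and with array weights, which were chosen after seeing the data, as was leaving out arrays for single proteases and PPL. Array batches were not tested, since no scan dates were used. Python 3.11.15 and matplotlib 3.10.9 drew the figures.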

Additional observations from a re-analysis of the deposited data

How the results depend on the processing

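With 2 arrays per group, single arrays decide many values. Of the 8 cystatins, 0 were called in each comparison, and the count was 1 for PIAS3 against control, CSTA each time, with robust eBayes, the 2 groups alone, an adjusted p of 0.10 or array weights, and 0 to 1 with single arrays left out. For the cysteine cathepsins and legumain it was 0, and 1 (CTSV) for PIAS3 against control with the 2 groups alone or an adjusted p of 0.10. With arrays left out it was 0 to 1 in the comparisons of PIAS3 with control and with the siRNA. Calls over all probe sets, 22 for PIAS3 against control, numbered 2 with quantile normalization or the filter, 39 with cyclic loess, 40 with robust eBayes, 262 with the 2 groups alone, 254 at 0.10, 143 with array weights, and 0 to 1232 with arrays left out. For the siRNA against control the 1 call became 0 with quantile normalization or cyclic loess, 3 with the 2 groups alone, 8 with array weights and 0 to 5 with arrays left out. PIAS3 against siRNA had 0 to 544 with arrays left out. Same-numbered arrays did not deviate together (correlations of -0.047, 0.0917 and -0.0591). With 2 arrays per group and PIAS3 replicate 1 standing apart, this cannot decide whether same-numbered arrays were handled as pairs. A replicate block gave 2 calls for PIAS3 against control in place of 22. The cause of these changes was not tested. The filter kept 5 of 8 cystatins and dropped CST5, CST6 and CSTA. In no setting tried did CST1, CST2, CST4, CST6, CSTA or CSTB change sign for PIAS3 against control. For each of them both PIAS3 arrays lay beyond both controls, so leaving out a single array could not change the sign. A replicate block, the 2 groups alone and array weights returned the same CST1, CST2 and CST4 differences as the main fit. The kept sign is therefore a description of the arrays and no further test.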
